A study of Arabidopsis thaliana with 12 samples.

Results

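The m6A peaks described here are those that the authors' deposited table of peaks places in a 3' UTR and splits into 2 or more exonic blocks. They are read here as spanning at least 1 splice junction, which was not checked against reads or exon positions. They were chosen by the annotation and block count of each row, not by any measured change, and numbered 2768 of the 6437 rows, or 43.0%. They lay in 2722 genes. Of the other rows, 2312 were unspliced 3' UTR peaks (1 block), 497 lay in 5' UTRs and 860 in other exons.

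The study set a mettl16 mutant against the reference accession Col-0, asking what m6A does around the floral transition. All samples were the aerial part of 3-week-old plants of Col-0 ecotype, grown in a greenhouse in long days (light for 16 h) at 23 °C. For each genotype there were 3 RNA-seq libraries, which served as input, and 3 libraries of RNA fragments of about 100 nt enriched with an antibody against m6A. The labels give neither the allele nor the locus of the mutation, nor what was pooled per replicate; the design text calls the 3 replicates biological.

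N6-methyladenosine is a methyl mark on adenosines inside messenger RNA. In plants it is placed mostly near stop codons and in 3' UTRs by a complex around MTA and MTB, is bound by YTH-domain readers of the ECT family and is removed by ALKBH demethylases. METTL16 is a separate methyltransferase with a role in methionine metabolism in mammals, and its Arabidopsis homologue is FIO1. Introns inside a 3' UTR are uncommon, since a junction well after the stop codon can mark a transcript for nonsense-mediated decay.

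FIO1 (AT2G21070), taken from general knowledge to be the mutated gene, was at 0.292, 0.148 and 0.197 FPKM in the mettl16 libraries, against 1.98, 2.13 and 2.31 FPKM in the Col-0 libraries. FPKM is a fragment count scaled by transcript length and library size. The sums of FPKM lay between 699031 and 706690 in mettl16 and between 714685 and 718824 in Col-0. Libraries correlated at 0.994 to 0.996 within a genotype and at 0.957 to 0.959 across genotypes (Pearson's r of log2 values, across genes). Of all libraries Col-0 replicate 1 had the most genes without signal (3120; the rest had 1939 to 2622). The leaf markers RBCS1A, LHCB1.3 and CA1 were abundant in every library. LHCB1.3 was lower in mettl16 (7950 to 8190 FPKM) than in Col-0 (14300 to 14800 FPKM), while the ranges of RBCS1A and CA1 overlapped, and the sum of all 3 was 33000 to 35500 FPKM in mettl16 and 38600 to 39600 FPKM in Col-0. All 7 floral organ markers and 5 of 7 anther markers were higher in every mettl16 library than in every Col-0 library. Their sums were 79.0 to 80.6 and 11.5 to 13.7 FPKM in mettl16, against 2.46 to 2.77 and 0.0909 to 0.162 FPKM in Col-0, where A9, A6, ATA7, MS1 and DYT1 were listed at 0. The part of this difference in organs in the results that follow was not tested, and in whole shoots more cells of a type and more RNA per cell cannot be told apart. Of 5 root markers, RHD6 and PLT1 had no expression row, COBL9 was at 0 to 0.0712 FPKM in mettl16 and listed at 0 in Col-0, and SCR and SHR, which shoots also express, were at 18.5 to 19.0 and 16.0 to 17.3 FPKM in mettl16, against 16.5 to 16.6 and 11.9 to 13.2 FPKM in Col-0.

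In these peaks the block nearest the gene's 3' end had a median of 333 nt, and the block nearest its 5' end a median of 70 nt. The outer blocks end at the peak boundary, so block lengths are not exon lengths. The peaks held 8113 blocks and 5345 gaps, and a gap is taken here as an intron. Of the 2768 peaks, 1239 had 2 blocks, 821 had 3, 457 had 4, 178 had 5 and 73 had 6 or more. The exonic length had a median of 532 nt, with a middle range of 450 to 596 nt, against a median of 386 nt for unspliced 3' UTR peaks. The gaps had a median of 96 nt, 78.5% of them were 70 to 150 nt long, 23 were 1000 nt or longer and 35 were shorter than 60 nt. In 216 peaks the smallest block was shorter than 10 nt.

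Most of these peaks were bounded at the very end of the annotated gene, and how boundaries were set is not given. The boundary of the peak coincided with the annotated 3' end in 1891 peaks, or 68.3%, against 56.7% of unspliced 3' UTR peaks. In those 1891 peaks the junction nearest to the gene end lay a median of 346 nt upstream of it, at least 250 nt upstream in 86.0% and under 100 nt in 17 peaks. The annotation of a row as 3' UTR does not say on which side of the stop codon its junctions lie. Exon and stop codon positions were not used here, so junctions within the 3' UTR and junctions between the last coding exons were not separated.

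The gene given to a peak was not always the gene that its blocks covered. All blocks lay inside the assigned gene in 2372 peaks, and 386 peaks ran past its 3' end. In 241 peaks, or 8.71%, more exonic bases lay in another gene of the expression table than in the assigned gene, and 466 peaks overlapped a gene of the opposite strand. The libraries kept strand (dUTP method). No source used here says whether the counting did.

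The peaks split between decreases and increases, and increases were more frequent among them than in the rest of the table. At an FDR under 0.05, 1393 peaks of the authors' deposited table were lower and 769 higher in mettl16, that is 50.3% and 27.8%, and 606 were not called. The direction, mettl16 over Col-0, is read from the table's name alone; were it the other way round, every m6A direction given here would turn. Over all 6437 rows the same rule called 69.2%, with 51.6% lower and 17.6% higher. Among unspliced 3' UTR peaks 52.6% were lower and 11.0% higher. The median log2 fold change, mettl16 over Col-0, was -0.16 over the junction-spanning peaks, -0.27 over the unspliced 3' UTR peaks and -0.23 over all rows of the authors' deposited table. These shares describe rows of one table, which are not replicates, and no test of the difference between classes was made. With every fold change centred on the median of all rows, 806 of the called peaks were lower and 1350 higher, so the split between directions depends on this centring.

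The changes were small in either direction. The median log2 fold change was -0.25 among lower and 0.27 among higher junction-spanning peaks, and 77.9% of all members lay between 0.1 and 0.4 in absolute size. At 0.5 or more in absolute log2 fold change, 115 called peaks were lower and 90 higher, and at 1 or more, 13 and 6. At 0.5 or more the share of higher peaks was 3.25% for junction-spanning and 3.63% for unspliced 3' UTR peaks, while the share of lower peaks was 4.15% and 10.2%. The surplus of increases was thus made of peaks with small folds, and large decreases were less frequent than among unspliced peaks. The largest increases were less frequent as well. Called or not, folds above 1 made up 0.831% of junction-spanning and 2.47% of unspliced peaks, and folds below -1 0.867% and 3.07%. A fold under 0.05 in absolute size stood in 1 row of the whole table, so rows with no change were nearly absent, and shares are shares of the deposited rows.

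**Figure D1:**
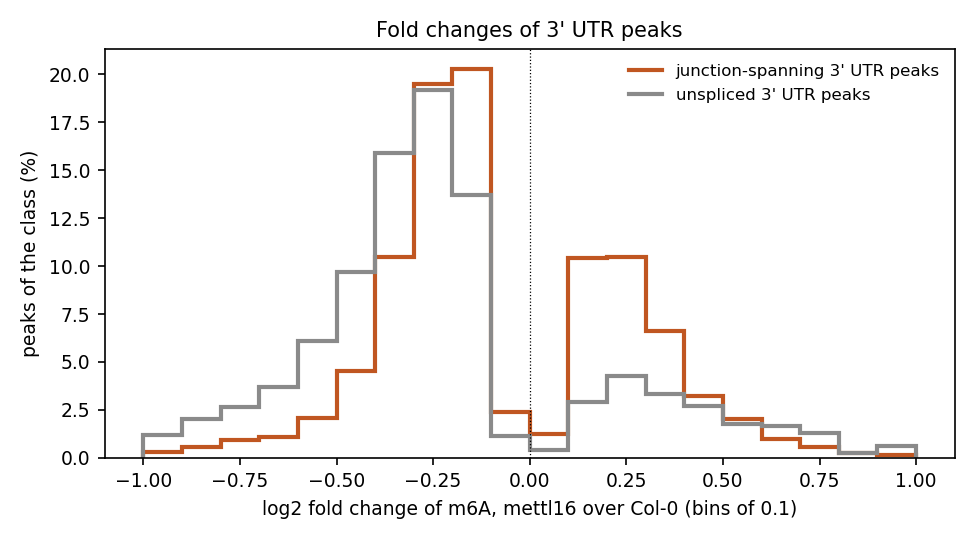
Histogram of the authors' log2 fold changes (x axis, mettl16 over Col-0, bins of 0.1, range -1 to 1) for junction-spanning and unspliced 3' UTR peaks, as a percent of each class (y axis). Both classes have few values next to 0. Junction-spanning peaks hold more small increases, fewer decreases below -0.4 and fewer increases above 0.6.

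The direction of change went with the number of blocks. In the authors' deposited table the share of 3' UTR peaks called higher in mettl16 was 11.0% with 1 block, 18.6% with 2, 29.1% with 3, 40.5% with 4, 46.1% with 5 and 43.8% with 6 or more. The share called lower was 52.6%, 56.9%, 48.2%, 42.9%, 36.5% and 42.5% in the same order. The median log2 fold change was -0.27 with 1 block, -0.20 with 2, -0.15 with 3, -0.10 with 4, 0.14 with 5 and -0.06 with 6 or more. Of the 1393 members called lower 688 had 3 or more blocks, and of the 769 called higher 538 had.

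**Figure D2:**
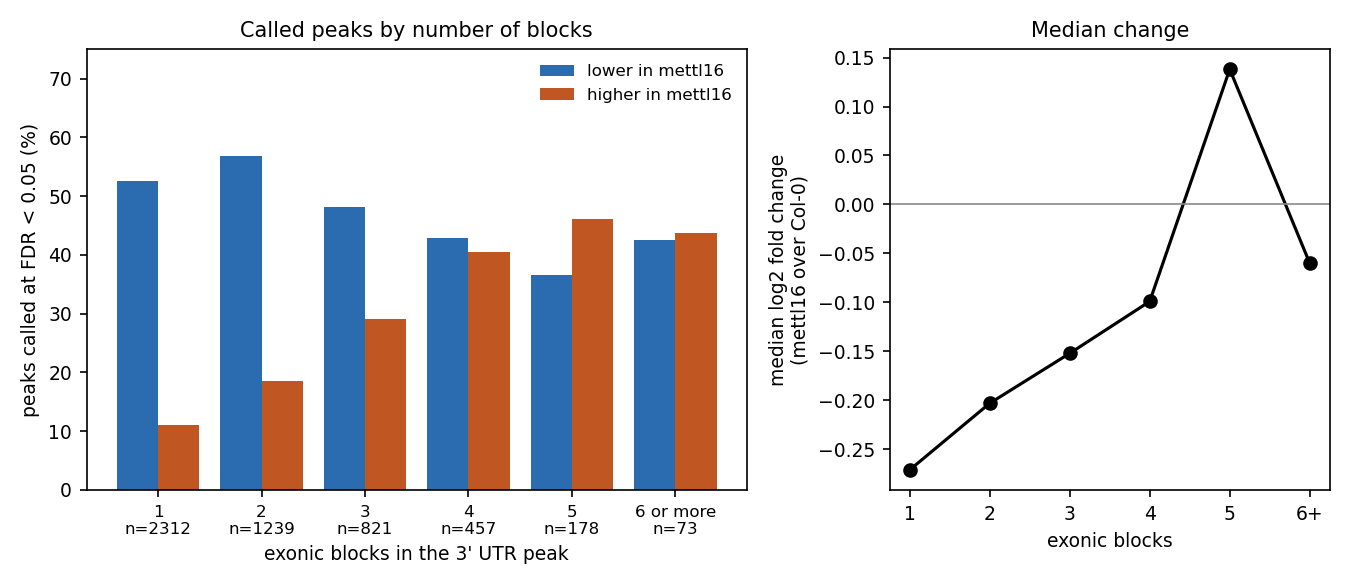
Left, percent of 3' UTR peaks called lower or higher in mettl16 (y axis) by number of exonic blocks (x axis, n of peaks below each). Right, median log2 fold change of the same peaks; the share called higher goes from 11.0% with 1 block to 46.1% with 5.

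Other properties moved with the number of blocks, and each was looked at in turn. The median exonic length was 386 nt with 1 block, 502 nt with 2 and 578 nt with 5, and the median host level was 11.2 FPKM with 1 block and 16.4 FPKM with 5. Within peaks of 500 to 600 exonic nt, 33.1% of 1123 junction-spanning peaks and 15.9% of 339 unspliced peaks were higher. Under 400 nt the shares were 15.7% and 8.99%, at 400 to 500 nt 18.5% and 13.9%, and from 600 nt upward 34.8% and 8.70%. Within host levels of 0.5 to 5, 5 to 15, 15 to 40 and 40 or more FPKM, 20.6%, 29.4%, 32.2% and 26.6% of junction-spanning peaks were higher, against 9.71% to 13.1% of unspliced peaks. Where the host transcript changed by under 0.25 on the log2 scale, the shares were 30.2% of 1440 and 10.7% of 1146 peaks. With peaks that lay wholly inside the assigned gene they were 28.2% and 10.6%.

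Gene length went with the direction as well. The median length of the assigned gene was 3139 nt for peaks called higher and 2348 nt for peaks called lower. In genes of 4000 nt or more, 46.2% of junction-spanning peaks were higher and 30.6% lower, against 18.1% and 50.4% of unspliced peaks. In genes under 1500 nt, 11.1% were higher and 65.6% lower, against 6.49% and 54.8%. A larger share of spliced rows was higher in other classes too, with 18.6% of 215 spliced and 5.32% of 282 unspliced 5' UTR rows. In other exons the shares were 8.49% and 5.49%.

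A total of 67 genes carried both a junction-spanning and an unspliced 3' UTR peak. Over them the median log2 fold change was -0.22 for the junction-spanning and -0.29 for the unspliced peak in the authors' deposited table. The junction-spanning peak had the larger value in 38 and the smaller in 29 genes. These medians lay closer together than those over all rows of the classes (-0.16 and -0.27). Shares called higher were not compared within these 67 genes, so the contrast between the classes is not shown there. Separately, 34 of the 2722 host genes had a 5' UTR peak, whether or not they had an unspliced 3' UTR peak. In these 34 genes 16 of 36 junction-spanning rows were lower and 13 higher, against 26 and 1 of 35 rows in 5' UTRs. Of all 5' UTR rows, 64.2% of spliced and 65.2% of unspliced ones were lower, and 18.6% and 5.32% higher.

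The table holds 1 fold change per peak and no value per library, so the levels behind a fold cannot be shown for m6A. For many of the peaks named next, the host transcript is given in all 6 RNA-seq libraries instead. Its change is tested with limma on log2(FPKM + 1), Benjamini-Hochberg adjusted over the 19505 genes that averaged at least 0.5 FPKM. The pseudocount of 1 makes the fold of a low gene smaller than the ratio of its FPKM values; where a pseudocount of 0.1 moves a printed fold by over 1.5 times, both are given. Coordinates are those of build TAIR10. Both comparisons rest on the same input libraries, so a peak change and a transcript change of a gene are set side by side and are not independent.

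The 10 lowest called peaks included peaks of barely detected transcripts. In 5 of them, AT3G19310, AT3G51350, AT4G37030 and AT1G48740 among these, the host averaged under 0.5 FPKM and was not tested. In the other 5 hosts the transcript was higher in mettl16, which AT3G28660 lost after quantile normalization (limma adjusted p = 0.0822) and MAP1D in several settings. Of all tested genes 41.1% rose, and the peaks assigned to RID3 and MAP1D, among these 5 hosts, lay more in another gene. The lowest value was that of AT3G19310, a PLC-like phosphodiesterase, at -2.88 in log2 fold change (FDR 0.0148) in the authors' deposited table. Its peak (chromosome 3, 6695722 to 6696214) joined blocks of 34, 87 and 204 nt, and its transcript was at 0.273, 0.439 and 0.204 FPKM in mettl16 and at 0.195, 0.182 and 0.131 FPKM in Col-0.

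SEP3 (AT1G24260), a MADS-box gene of floral organ identity, had the next lowest value. Its peak ended at the gene end and joined a block of 52 nt to one of 244 nt across an intron of 92 nt, and stood at -2.36 (FDR 0.00724) in the authors' deposited table. The transcript was at 21.9, 22.4 and 23.1 FPKM in mettl16, against 0.136, 0.316 and 0.195 FPKM in Col-0. The groups did not overlap, and the fold of the peak is set against an input that was close to 0 in Col-0.

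AOX1A (AT3G22370), the stress-induced mitochondrial alternative oxidase, had the lowest FDR of these 10 peaks. Its peak (chromosome 3, 7908154 to 7908681) joined 123 and 325 nt and stood at -1.19 (FDR 7.94e-46) in the authors' deposited table. The transcript was at 52.5, 54.8 and 53.3 FPKM in mettl16, against 19.2, 18.8 and 18.7 FPKM in Col-0, a log2 change of 1.45 (limma adjusted p = 6.09e-10). AT3G51350, an aspartyl protease, AT4G37030, AT3G28660, a TPR-like protein, and AT1G48740, an oxygenase, had log2 fold changes of -1.79, -1.55, -1.44 and -1.36 in the authors' deposited table.

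A further 2 of the 10 lowest were assigned to RID3 and MAP1D, at -1.34 (FDR 0.0479) and -1.27 (FDR 0.0339) by the authors' deposited table, but all of their exonic bases lay in a gene of the opposite strand. These were AT3G49190, an acyltransferase, at 0.0294, 0.0362 and 0.117 FPKM in mettl16 and at 0.0392, 0 and 0.0173 FPKM in Col-0, and PLP4, a patatin-like protein. PLP4 was at 0.544, 0.471 and 0.303 FPKM in mettl16 and at 0, 0.0158 and 0 FPKM in Col-0. Neither reached the level for testing. The assigned genes RID3 and MAP1D also held 38.3% and 50.0% of the exonic bases of their peaks.

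Among the 10 highest called peaks, MC2 (AT4G25110), a metacaspase, came first at 2.11 (FDR 0.0178) in the authors' deposited table. Its peak (chromosome 4, 12887518 to 12888414) joined 138 and 280 nt across an intron of 479 nt. The transcript was at 0.254, 0.222 and 0.155 FPKM in mettl16, against 2.14, 1.70 and 1.8 FPKM in Col-0, a log2 change of -1.25 (limma adjusted p = 1.27e-06), or of -2.68 with a pseudocount of 0.1. It was the 1 host of these 10 that fell. Of the rest 5 rose (AT2G06040 no longer after quantile normalization, limma adjusted p = 0.0514), 3 did not pass the test and 1 was not tested. Over all tested genes 41.1% rose and 23.4% fell. The peaks assigned to AT2G30820 and PSAT, among the 5 that rose, lay more in another gene.

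AT3G19184, an AP2/B3-like transcription factor, was at 1.5 (FDR 0.000339) in the authors' deposited table, and its transcript was at 0.953, 0.895 and 1.11 FPKM in mettl16 and at 0.921, 0.897 and 0.720 FPKM in Col-0 (limma adjusted p = 0.309). AT5G07380 was at 1.43 (FDR 0.0105) and AT1G03920, a protein kinase, at 1.04 (FDR 0.0141) in the authors' deposited table. AT2G06040 was at 0.97 and SOS3, a calcium sensor of salt tolerance, at 0.84 there. The untested AT5G07380 transcript was at 0.291, 0.471 and 0.641 FPKM in mettl16 and at 0.389, 0.348 and 0.397 FPKM in Col-0. Of its peak, 33.3% of exonic bases also lay in AT5G07390 on the other strand. AT1G03920 averaged 1.08 FPKM in mettl16 and 0.892 FPKM in Col-0, and SOS3 1.02 and 1.04 FPKM. BCAT-1, a branched-chain amino acid transaminase, was at 0.87 (FDR 0.00115) in the authors' deposited table, and its transcript was at 5.97, 5.94 and 6.44 FPKM in mettl16 and at 3.53, 2.58 and 2.70 FPKM in Col-0, a log2 change of 0.86 (limma adjusted p = 2.11e-05).

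The peaks assigned to AT2G30820 and PSAT, at 1.17 and 1.00 in the authors' deposited table, lay wholly in genes of the opposite strand. Of the exonic bases of the AT2G30820 peak, 66.4% lay in AT2G30820 as well. For PSAT, a serine biosynthesis enzyme, 20.5% of exonic bases lay in the assigned gene and all lay in SERAT3;2, a serine acetyltransferase. SERAT3;2 was at 2.72, 2.44 and 1.99 FPKM in mettl16, against 0.566, 0.698 and 0.664 FPKM in Col-0, a log2 change of 1.04 (limma adjusted p = 8.15e-06), or of 1.74 with a pseudocount of 0.1. AT2G30830, the oxygenase gene under the other peak, stayed below 0.3 FPKM in each library.

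**Figure D3:**
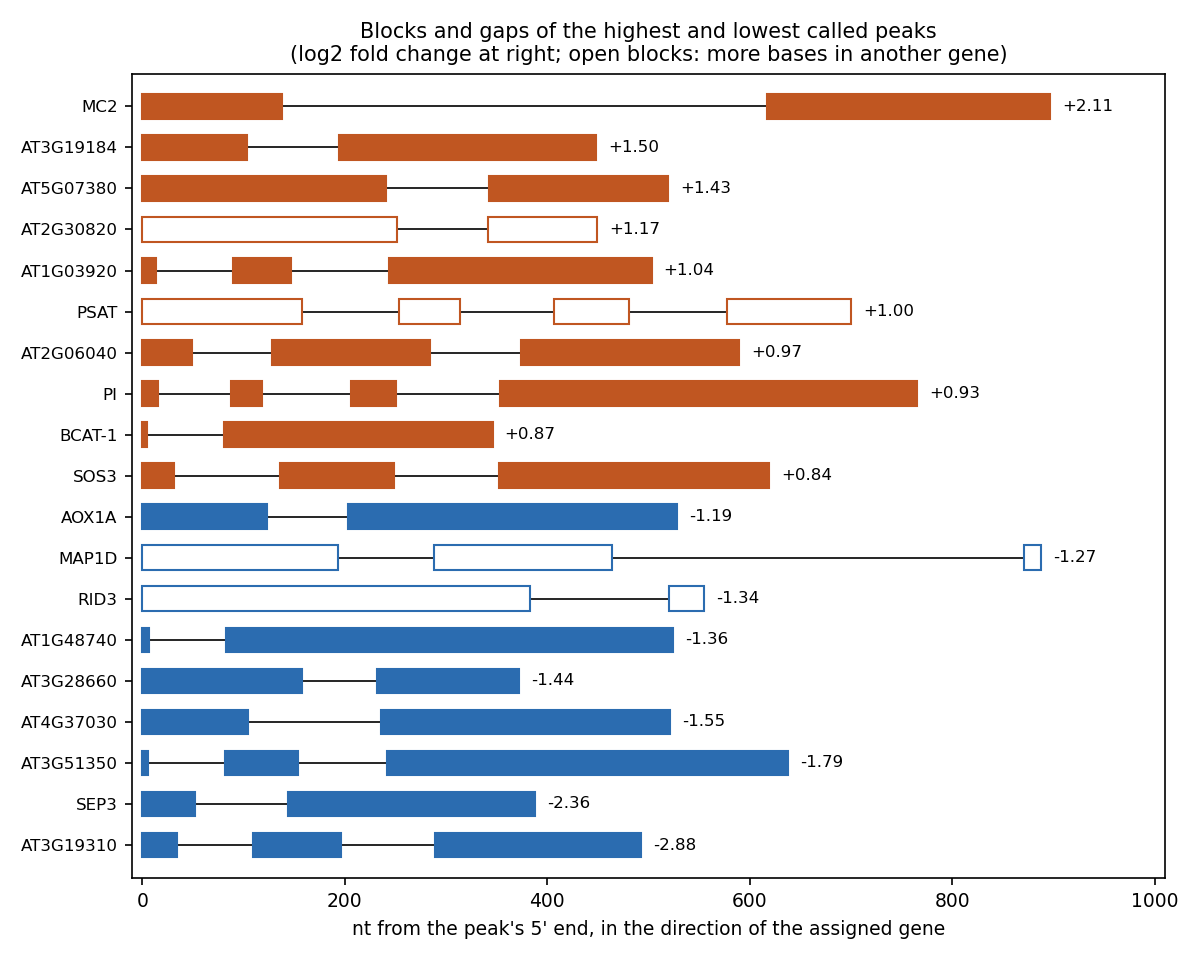
Exonic blocks (boxes) and gaps (lines) of the highest and lowest called junction-spanning 3' UTR peaks, in nt from the 5' end of the peak (x axis), with the authors' log2 fold change at the right. Open boxes mark the 4 peaks with more exonic bases in another gene than in the assigned one; in most others the last block is the longest.

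The lowest FDR values belonged to peaks of abundant transcripts of leaf metabolism, and 5 of 6 folds were under 0.4 in absolute size (these 6 peaks were singled out after their values were seen). GOX1, a glycolate oxidase of photorespiration, PGK1, a phosphoglycerate kinase of the Calvin cycle, and SHM1, the mitochondrial serine hydroxymethyltransferase of photorespiration, each had a log10 FDR of -434 in the authors' deposited table. Their log2 fold changes there were -0.38, -0.33 and -0.35. GLDP1, a glycine decarboxylase subunit of the same pathway, was at -0.34 in the authors' deposited table. LHCA2, a photosystem I antenna protein, and CLA1, the first enzyme of the plastid isoprenoid pathway, were higher, by 0.36 and 0.65 in the authors' deposited table. The LHCA2 transcript was lower, a fall lost after quantile normalization. How replicates entered these FDR values is not given, so they may not measure variation between replicates.

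PGK1 was at 892, 911 and 891 FPKM in mettl16 and at 891, 881 and 893 FPKM in Col-0, and the change did not pass the test (limma adjusted p = 0.542). CLA1 was at 165, 169 and 168 FPKM in mettl16, against 264, 275 and 260 FPKM in Col-0, a log2 change of -0.67 (limma adjusted p = 3.54e-08). A lower peak thus stood beside a transcript at about the same FPKM, and a higher peak beside a transcript that fell.

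The 7 gene lists cover flowering, clock, light, m6A, splicing, decay and methionine, and 34 of their 143 genes had a junction-spanning 3' UTR peak. Of these 34 peaks 18 were lower, 9 higher and 7 not called, against 50.3%, 27.8% and 21.9% of all members. No gene of the methionine list had such a peak.

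Of 45 floral regulators 10 had a junction-spanning peak, of which 4 were lower, 2 higher and 4 not called, and 7 of the 10 transcripts rose and 2 fell, where 41.1% of all tested genes rose and 23.4% fell. MAF4 and MAF5, neighbouring relatives of the floral repressor FLC, each had a peak of 5 blocks that reached the gene end. The MAF4 peak (chromosome 5, 25995054 to 25996174) was lower, at -0.80 (FDR 0.0012), and the MAF5 peak (chromosome 5, 26000907 to 26002465) higher, at 0.33 (FDR 0.0105), by the authors' deposited table. Both transcripts fell: MAF4 was at 0.412, 0.578 and 0.662 FPKM in mettl16, against 3.07, 3.96 and 3.78 FPKM in Col-0. MAF5 was at 2.97, 3.34 and 3.73 FPKM in mettl16, against 9.23, 10.7 and 8.36 FPKM in Col-0. These 2 transcripts are close copies in a tandem array, so the split of fragments between them is uncertain.

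PI, which specifies petals and stamens, had a peak of 4 blocks that was higher by 0.93 (FDR 0.0363) in the authors' deposited table. Its transcript was at 10.3, 10.9 and 11.6 FPKM in mettl16, against 0.321, 0.249 and 0.524 FPKM in Col-0. The peaks of SEP2, AP3, AG and FUL, which act with PI and SEP3 in flowers or fruits, had log2 fold changes of 1.19, 0.66, 0.58 and 0.37 in the authors' deposited table and were not called (FDR 0.127, 0.181, 0.119 and 0.103). Their transcripts rose by 2.85, 3.41, 1.37 and 1.87 on the log2(FPKM + 1) scale (limma adjusted p = 2.42e-09, 6.14e-10, 1.5e-06 and 7.88e-08). With a pseudocount of 0.1 these rises were 5.37 for SEP2, 5.30 for AP3, 2.37 for AG and 2.31 for FUL. In Col-0 the transcripts of SEP2, AP3 and AG averaged 0.0748, 0.212 and 0.453 FPKM. As for SEP3, the folds of these peaks and of the PI peak are set against a low Col-0 input. SEP4, a further MADS-box gene of this clade, and LD, of the autonomous flowering pathway, were lower by small amounts, at -0.21 (FDR 0.0275) and -0.16 (FDR 0.00174) by the authors' deposited table.

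The 3 clock genes with such a peak all had 2 blocks and nearly the same decrease. Of all members 50.3% were lower, and of 3' UTR peaks with 2 blocks 56.9%. LHY and CCA1, partly redundant morning transcription factors, were both at -0.14 (FDR 1.74e-05 and 7.24e-08) by the authors' deposited table, and PRR7, which represses them, was at -0.14 (FDR 0.000525). The transcripts differed in direction. LHY was at 89.0, 93.2 and 88.6 FPKM in mettl16, against 40.7, 39.0 and 46.7 FPKM in Col-0, a log2 change of 1.09 (limma adjusted p = 7.84e-07). PRR7 was at 26.8, 27.6 and 28.1 FPKM in mettl16, against 44.6, 46.0 and 45.7 FPKM in Col-0, a log2 change of -0.71 (limma adjusted p = 6.17e-08).

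All 5 light-signalling genes of the list that had any peak had a junction-spanning 3' UTR peak, and all 5 were called, where 78.1% of all members were. PHYA, the far-red receptor, CRY1, a blue-light receptor, and PIF4, a bHLH growth promoter, had higher peaks, by 0.46, 0.20 and 0.18 (FDR 1.74e-05, 6.92e-08 and 0.0263) in the authors' deposited table. HYH, a bZIP partner of HY5, and PIF7 had lower ones, at -0.21 (FDR 0.000302) and -0.22 (FDR 4.57e-08) by the authors' deposited table. PHYA was at 13.7, 14 and 14 FPKM in mettl16, against 18.2, 18 and 18.7 FPKM in Col-0. CRY1 was at 41.5, 42.6 and 40.5 FPKM in mettl16, against 70.2, 68.0 and 67.2 FPKM in Col-0. PIF4 was at 33.4, 34.3 and 32.1 FPKM in mettl16, against 69.2, 72.3 and 69.8 FPKM in Col-0, so that the genotypes did not overlap for any of these receptors and PIF4. HYH went the other way, with 39.2, 42.3 and 42.6 FPKM in mettl16, against 21.3, 21.9 and 23.6 FPKM in Col-0, a log2 change of 0.87 (limma adjusted p = 2.1e-07). PIF7 fell by 0.24 (limma adjusted p = 0.000113).

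**Figure D4:**
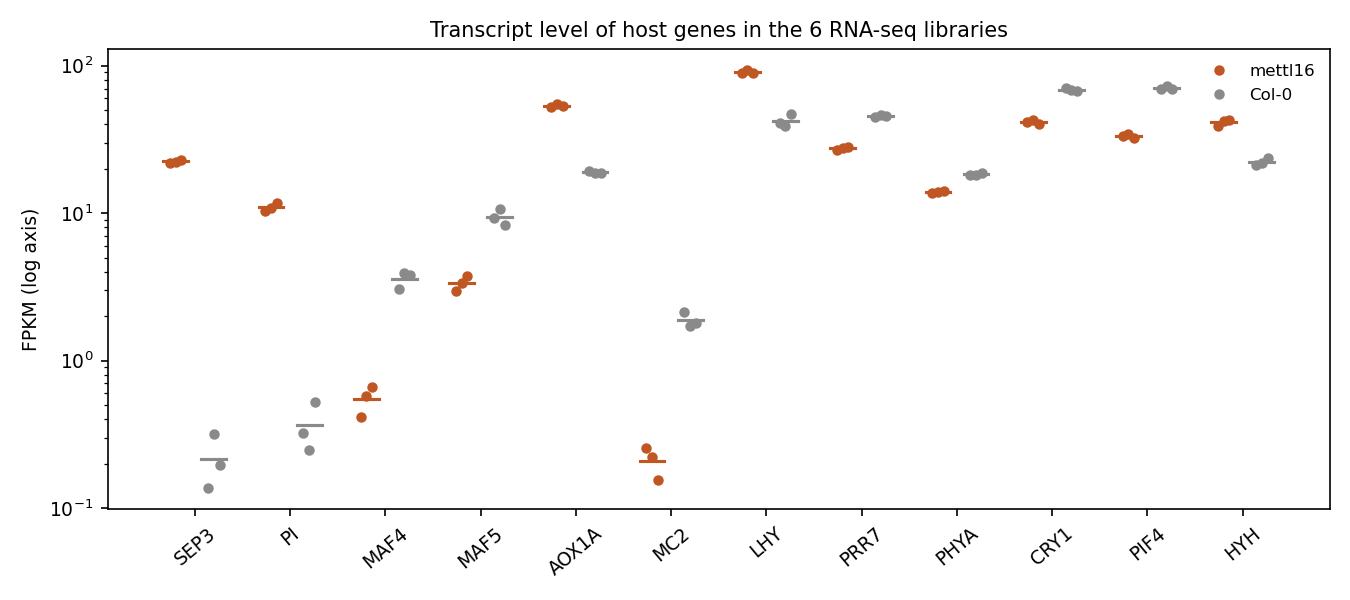
Transcript level (FPKM, log axis) of 12 host genes of junction-spanning 3' UTR peaks in the 3 mettl16 and 3 Col-0 RNA-seq libraries (points) with the mean (bar). For each gene shown the 3 values of one genotype lie wholly above those of the other.

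Of the 20 genes of the m6A machinery, 7 had a peak of any kind and 5 a junction-spanning 3' UTR peak. All 5 were YTH-domain readers, but the share of readers among the 20 is not set beside this. ECT11 was lower by -0.62 (FDR 5.25e-10) in the authors' deposited table. ECT9 and ECT1 were higher, by 0.27 (FDR 0.0417) and 0.24 (FDR 0.000288) by the authors' deposited table, and ECT4 and ECT8 were not called (FDR 0.101 and 0.0575). All 5 transcripts rose (41.1% of all tested genes did), by 0.49 for ECT11, 0.47 for ECT9, 0.55 for ECT1, 0.52 for ECT4 and 0.64 for ECT8 on the log2(FPKM + 1) scale (limma adjusted p = 1.01e-06 to 0.000222). ECT11 was at 9.55, 9.06 and 8.93 FPKM in mettl16, against 5.94, 6.54 and 6.34 FPKM in Col-0.

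Of 26 splicing factors 8 had such a peak, of which 6 were lower, 1 higher and 1 not called. Over all members 50.3% were lower and 27.8% higher. SR45A, a stress-induced SR-like protein, was at -0.43 (FDR 2.51e-21), RS41 at -0.32 (FDR 3.16e-27) and U2AF35B, a subunit of the factor that binds the 3' splice site, at -0.32 (FDR 3.98e-26) in the authors' deposited table. SCL30A, RS40 and U2AF65B were at -0.18, -0.18 and -0.14 in the authors' deposited table. SR34A, with 5 blocks, was the member that was higher, by 0.10 (FDR 0.0132) in the authors' deposited table, and SCL28 was not called (FDR 0.353). The U2AF35B peak joined a block of 593 nt to one of 2 nt, and its transcript was at 34.8, 36.3 and 34.5 FPKM in mettl16 and at 36.8, 34.5 and 35 FPKM in Col-0 (limma adjusted p = 0.835). The other 7 transcripts rose, as did 20 of the 26 on the list, where 41.1% of all tested genes and 46.1% of tested hosts rose. RS40, RS41, U2AF65B and SCL28 rose by 0.14 to 0.28 (SCL28 by 0.52 with a pseudocount of 0.1). These 4 rises were lost after median centring or quantile normalization (limma adjusted p = 0.0522 to 0.374). SCL28 lost its rise, too, when mettl16 replicate 3 (0.0706) or Col-0 replicate 3 (0.076) was left out.

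The decay list had 3 such peaks of 12 genes. UPF3, a core factor of nonsense-mediated decay, and MAGO, of the exon junction complex, were lower, at -0.22 (FDR 0.00891) and -0.09 (FDR 0.000871), and EIF4A3, the anchor of that complex, was higher, at 0.19 (FDR 3.47e-09), in the authors' deposited table. Their transcripts rose by 0.25, 0.24 and 0.21 (limma adjusted p = 0.00124, 0.00146 and 0.00136), where 41.1% of all tested genes rose.

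**Figure D5:**
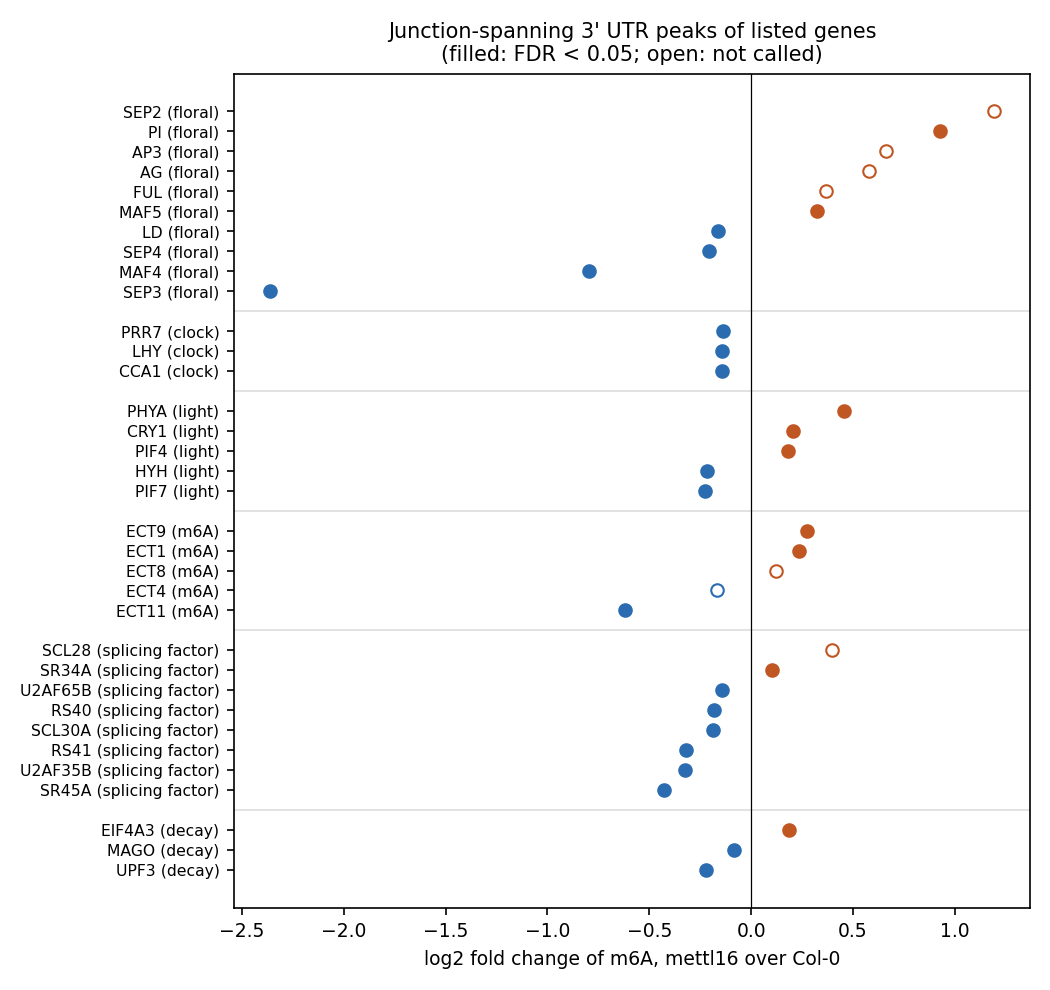
Authors' log2 fold change (x axis, mettl16 over Col-0) of each junction-spanning 3' UTR peak in a listed gene (y axis, list in parentheses); filled points passed the authors' FDR of 0.05. SEP3 and MAF4 lie farthest to the left, and the increases of SEP2, AP3, AG and FUL are not called.

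The peaks with most blocks and longest gaps were mostly small changes. AT1G60640, with 10 blocks over 775 exonic nt, was at -0.27 (FDR 3.16e-12) in the authors' deposited table, and its transcript was at 46.5, 46.9 and 44.5 FPKM in mettl16, against 20.5, 21.4 and 19.4 FPKM in Col-0. RAD50, a DNA repair protein, had 8 blocks and was not called, and BGLU5, a beta-glucosidase, had 7 and was at -0.27 in the authors' deposited table. RPP4, a TIR-NBS-LRR resistance gene, had 6 blocks over 3140 exonic nt with a gap of 3158 nt. Its peak was higher by 0.56 (log10 FDR -76.0) in the authors' deposited table, beside a transcript at 11.9, 13.1 and 12.8 FPKM in mettl16, against 21.3, 21.1 and 22.4 FPKM in Col-0. RPP4 belongs to a cluster of similar genes, so its fragment counts are uncertain. The longest gap, 3997 nt, stood in a peak assigned to RLP37 whose exonic bases all lay in XRCC4 on the other strand (not called). The peak with a gap of 1993 nt assigned to MYB95 lay in AT1G74440, with 29.4% of its exonic bases in MYB95 as well.

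By the KEGG annotation of the authors' deposited table, 1043 host genes had a pathway, and 23 pathways held at least 20 of them. They were chosen by size after the values were seen, so their counts are a description. In 19 of the 23 more peaks were lower than higher, as over all members (50.3% lower and 27.8% higher). Ribosome had 72 of 83 junction-spanning peaks lower and 4 higher, and 39 of 45 unspliced 3' UTR peaks lower and 1 higher. AT3G55750, an L35Ae family protein, RPL5B and SAC52, an L10 protein, were at -0.30, -0.24 and -0.29 in the authors' deposited table. Ribosome biogenesis had 14 lower and 2 higher of 21, against 9 and 2 of 14 unspliced 3' UTR peaks, and among its lower ones were NOP56, a box C/D snoRNP protein, at -0.48 and RAN3, a small GTPase of nuclear transport, at -0.49 in the authors' deposited table.

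In 2 pathways more peaks were higher than lower. Protein processing in the endoplasmic reticulum had 21 higher and 19 lower of 42 junction-spanning peaks, against 2 higher and 24 lower of 35 unspliced 3' UTR peaks. AT2G21160, a translocon-associated subunit, and AT4G32640, of the Sec23/Sec24 family, were at 0.36 and 0.48 in the authors' deposited table. The plastid chaperones cpHsc70-1 and CR88 were at -0.23 and -0.24 there. Aminoacyl-tRNA biosynthesis had 11 higher and 7 lower of 23, against 1 and 2 of 5 unspliced peaks, with the alanyl-tRNA synthetase ALATS at 0.19, GATB, of a transamidase, at 0.34 and the synthetase AT4G39280, whose peak had 7 blocks, at 0.37 in the authors' deposited table.

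As transcripts, the host genes were more abundant than tested genes in general and changed about as often. Of 2722 host genes 2717 had an expression row and 2647 were tested. Their median was 13.7 FPKM, against 9.31 FPKM over all tested genes. In mettl16, 1221 rose and 578 fell, or 46.1% and 21.8%, where limma called 64.5% of all tested genes (41.1% higher and 23.4% lower) and 68.0% of the hosts. The median log2 change was 0.11 for hosts and 0.08 for all tested genes, a shift to bear in mind for the small rises. Median centring gave 1003 higher and 767 lower hosts, quantile normalization 947 and 795, and rescaling to TPM 1315 and 520. A change of at least 1 on the log2 scale was reached by 75 risers and 37 fallers, or 2.83% and 1.40% of the tested hosts, against 3.02% and 2.04% of all tested genes.

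On the log2(FPKM + 1) scale the host transcripts that rose most were PER64, SEP3, AP3, PI and SEP2. PER64, a class III peroxidase, was at 19.0, 21.5 and 20.8 FPKM in mettl16, against 0.0792, 0 and 0 FPKM in Col-0. Its peak lay wholly in AT5G42190, an SKP1 family gene of the opposite strand, and 5.7% of its exonic bases lay in PER64 as well. AT5G42190 was at 49.6, 52.5 and 52.3 FPKM in mettl16, against 59.3, 63.1 and 58.7 FPKM in Col-0. The largest falls on that scale were those of AT5G42250, a zinc-binding alcohol dehydrogenase, AT3G22235, BBX27, a B-box zinc finger protein, GLYR2, a glyoxylate reductase, and GPRI1 (also called GLK1), an activator of chloroplast genes. GPRI1 was at 47.7, 46.5 and 45.5 FPKM in mettl16, against 142, 143 and 140 FPKM in Col-0, a log2 change of -1.58 (limma adjusted p = 1.58e-10). With a pseudocount of 0.1, MC2 (-2.68) and MAF4 (-2.52) fell most, ahead of AT5G42250 (-2.06). The GPRI1 peak was higher by 0.19 (FDR 0.00049), that of BBX27 by 0.40 (FDR 1.41e-06) and that of AT5G42250 by 0.33 (FDR 0.0182) in the authors' deposited table. The peaks of AT3G22235 and GLYR2 were not called (FDR 0.0525 and 0.0617).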

How the data were processed

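The authors deposited a table of FPKM values for 6 RNA-seq (input) libraries and a table of m6A peaks, per the file headers. The deposited peak table holds block sizes and starts, the authors' log2 fold change, the p-value of the peak and of its change, and the FDR of the change as a log10 score. Per the submitters' processing notes, the tools included HISAT2, StringTie, cutadapt, edgeR, fastp and HOMER, and the build was TAIR10; neither versions nor roles are listed. Peak calling, fold formula, replicate handling and strand use: not given in the sources used here. A peak called at the authors' FDR may therefore not be one that changed beyond the variation between replicates. Folds are taken as mettl16 over Col-0 because the table is named in that order. Absolute depth is unknown, as FPKM does not store it.

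Members were rows annotated 3' UTR with at least 2 blocks. Gaps, exonic lengths and ends were computed from the blocks. Peaks were called at the authors' FDR under 0.05. Expression was tested with limma 3.58.1 (R 4.3.3) on log2(FPKM + 1), two-sided, with a trended and robust prior, keeping genes that averaged 0.5 FPKM or more; the fit was tested on simulated data. Alternatives were a pseudocount of 0.1, other filters, median centring, quantile normalization, TPM, a constant prior, a replicate block and leaving out each library. Same-numbered RNA-seq libraries did not deviate together across genotypes (r of deviations -0.0823, 0.00866 and 0.00173). This cannot show whether replicates were paired, and m6A libraries were not examined. Python 3.11.15, NumPy 2.4.6, pandas 2.3.3 and matplotlib 3.10.9 were used. RefSeq's gene table of TAIR10.1 gave symbols for 99.9% of the host genes.

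Named are the 10 lowest and 10 highest called peaks, 3 with most blocks, 3 with the longest gap, all listed genes with a member and the 5 largest rises and falls of host transcripts; the 6 peaks of lowest FDR were added after their values were seen. Of the 10 lowest peaks 1 is not reported here. Members, lists and rules were chosen with earlier results of these data known. No sequence is printed, as no genome was used here.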

Additional observations from a re-analysis of the deposited data

How the results depend on the processing

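Calls per peak are the authors' and could not be recomputed without a library. At FDR under 0.01, with repeated intervals counted once, with 1 peak per gene, and without the 241 peaks that lie more in another gene (chosen after seeing the data), the counts of lower and higher peaks stayed within 1.5 times of 1393 and 769. At FDR under 0.01, 19.8% of junction-spanning and 6.27% of unspliced 3' UTR peaks were higher. With a log2 fold change of 0.5 or more in either direction added to the FDR, 115 were lower and 90 higher; with 3 or more blocks, where fewer peaks enter, 688 were lower. With centred folds 806 were lower and 1350 higher. The median log2 fold change, -0.16 over all members, was -0.122 with 3 or more blocks and -0.174 among called members. The median gap, 96 nt, was the same with gaps of at least 60 nt only and with repeated intervals counted once.

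Host gene counts stayed within 1.5 times of 1221 risers and 578 fallers in each setting run; leaving out 1 library gave 1139 to 1195 risers and 529 to 540 fallers. With the replicate block there were 1214 and 562, and of 64 named hosts tested 56 passed with and without it. Of 893 single-gene comparisons 24 lost and 7 gained the call. PGK1 was at -0.06 (adjusted p = 0.0348) after median centring and at 0.09 (0.00953) after quantile normalization, and SHM1 at -0.13 (0.00251) and 0.25 (4.05e-05), so that both have no stable direction; after quantile normalization the fall of LHCA2 was lost; the cause was not tested. The rise of MAP1D (0.12, adjusted p = 0.0369) was lost in 8 settings (up to 0.504), and the fall of RLP37 without Col-0 replicate 2 or 3 or mettl16 replicate 1 (0.0632 to 0.0662). A pseudocount of 0.1 moved the fold of AT3G28660 (0.34) to 0.58, of MAF4 (-1.57) to -2.52 and of PER64 (4.38) to 7.40. The planned rank correlation of peak and host changes was not run, since both rest on the same input libraries.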
